A study of Xenopus laevis with 16 samples.

Results

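WNT ligands, their receptors and the proteins that modulate them were followed in amputated hindlimbs of the frog Xenopus laevis at a larval stage that can regenerate the limb and at one that cannot. The set held every array probe set that carried exactly 1 gene symbol and whose symbol began with wnt, fzd, sfrp or dkk followed by a digit, or was frzb, lef1, tcf7, tcf7l1, ctnnb1, axin1, axin2, dvl1, dvl2, dvl3, lrp5 or lrp6. This gave 55 probe sets for 43 gene symbols, out of 9304 probe sets and 7531 symbols with a single symbol on the array. The suffix of a symbol, L or S, tells the long from the short copy of a chromosome in this species, so 1 gene can have a pair of homeologs. Where a gene has several tested probe sets, they are numbered set 1, set 2 and so on.

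There were 4 groups of 4 arrays each: stage 53, the regeneration-competent stage, at 1 and 5 days after amputation, and stage 57, the non-competent stage, at the same days. No genotype, strain or transgene was labelled for any group, and limbs without amputation were not analysed here. Limbs had been cut on one or both sides through the middle of the zeugopodium, the lower leg, and tissue within 1 mm proximal to the cut was taken. Every group therefore shares the injury, and stage is confounded with larval age and with everything else that changes between these stages. Whether replicates are different animals is not stated in the labels, so the p-values reflect the scatter of these arrays, some or all of which may be technical. In whole tissue, fewer cells of a type and less RNA per cell cannot be told apart.

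WNT proteins are secreted lipid-modified ligands that bind Frizzled receptors together with the co-receptors LRP5 and LRP6. In the branch that uses beta-catenin, Dishevelled then inhibits a complex built on Axin, beta-catenin builds up and it activates target genes with TCF and LEF proteins in the nucleus. The Dickkopf protein Dkk1 blocks the LRP co-receptors, and the secreted Frizzled-related proteins, which include frzb, bind the ligands themselves. The dkk, sfrp and frzb genes are grouped below as secreted antagonists by their names, and their effect on the pathway was not measured. Other branches, in which WNT5A and WNT11 are the best-known ligands, steer cell polarity and movement. Blocking the beta-catenin branch with Dkk1 in transgenic Xenopus tadpoles is known to prevent limb regeneration.

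The array measured these roles unevenly. Ligands had 16 probe sets, receptors 19, secreted antagonists 7, cytoplasmic components 10 and nuclear factors 3. Values are deposited MAS5 signals, a brightness per probe set, given here as log2, and 1 unit is a change by a factor of 2. Probe sets with a mean log2 signal above 6.6, the 25th percentile of the array, were tested, and 31 of the 55 passed. The passing sets were 6 of 16 for ligands, 8 of 19 for receptors, 5 of 7 for antagonists, 9 of 10 for cytoplasmic components and 3 of 3 for nuclear factors. Under the filter lay all probe sets of 17 symbols, which were wnt1.L, wnt11b.L, wnt2b.L, wnt4.L, wnt5b.S, wnt6.S, wnt8a.L, wnt8b.S, fzd1.L, fzd10.L, fzd4.S, fzd5.S, fzd8.L, lrp6.L, sfrp1.L, sfrp5.L and axin1.L. Without detection calls, a low signal says only that the probe set was dim. When the filter was dropped, limma called 0 of the 24 dim probe sets in each of the 5 contrasts, and between 0 and 3 of them had an unadjusted p below 0.05. The lowest adjusted p among them was 0.0527, for a dim fzd7.L probe set that read higher at stage 53 on day 5 by 2.55. The names lef1 and dvl1 had no probe set with 1 symbol, and a ctnnb1 and a lef1 probe set that each carry both homeologs' symbols were left without values.

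Some arrays stood apart. On replicates 2 and 3 of stage 57 at 1 day and replicate 2 of stage 57 at 5 days, the log2 ratio of the 3-prime to the 5-prime beta-actin control probe set was 4.7 to 5.72, against 0.01 to 2.38 on the other 13 arrays. A high ratio means that the 5-prime end of the transcript was read poorly. The same ratio for the Gapdh control was high on every array, at 5.46 to 7.33 on these 3 and 3.63 to 5.22 on the other 13. Correlations between arrays of one group ran from 0.767 to 0.955, with a median of 0.923. Among the 31 tested WNT probe sets, 6 read lower on all these 3 arrays than on any other stage 57 array, which is 19.4%, against 18.9% of all 11618 tested probe sets. Another 4 read higher on all 3 arrays, which is 12.9% against 20.6%. All 3 arrays belong to stage 57, where fits without them rest on 2 arrays at 1 day and 3 at 5 days. Without the 3 arrays, 10 of the 31 WNT differences between stages changed sign on day 1 and 3 on day 5, none of them called. In that fit wnt4.L and sfrp1.L also passed the filter, so that 33 WNT sets were tested, and limma called neither. wnt4.L had read 2.17, 6.69 and 3.41 on the 3 arrays. The values without these arrays are given below for some members and days only. Among those not given below, fzd3.L went from -0.04 to -0.54 on day 1 and tcf7.S from -0.32 to -0.01. On day 5, wnt2b-b went from 0.24 to 0.74 and wnt5a.S from -0.42 to -0.01.

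Differences below are stage 53 minus stage 57, from a limma fit across all 16 arrays and 11618 probe sets, with Benjamini-Hochberg adjustment over all of these. A probe set is called when its adjusted p is below 0.05. On day 1, limma called 0 of the 31 WNT probe sets higher at stage 53 and 1 lower, while 0.99% of all tested probe sets were called higher and 1.56% lower. At an unadjusted p below 0.05, 5 of the 31 passed on day 1, against 18.1% of all probe sets. On day 5, 3 probe sets were called higher and 1 lower, against 3.48% and 3.89% of all tested. At an unadjusted p below 0.05, 10 of the 31 passed on day 5, against 22.6% of all. The day 5 calls were fzd7.L with 2 probe sets, fzd10.S and wnt11.S, so that all 3 calls upward were Frizzled receptors and the only call downward was a ligand.

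**Figure D1:**
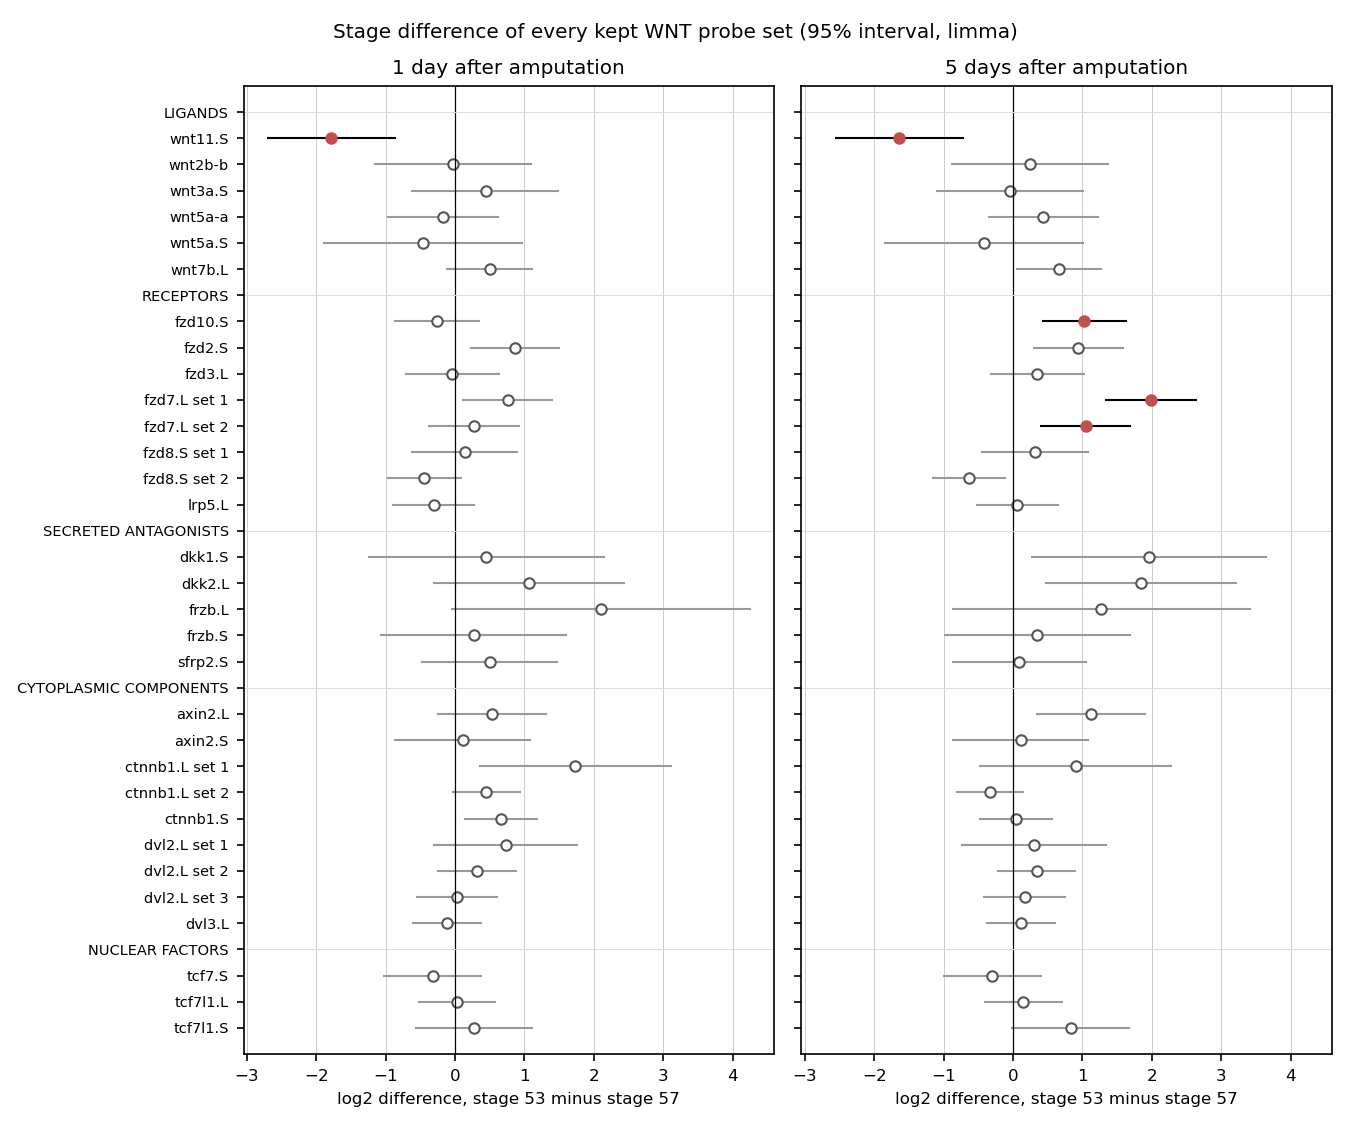
Difference of each of the 31 tested WNT probe sets between stage 53 and stage 57, on the log2 scale, at 1 day (left) and 5 days (right), grouped by role. Points are limma estimates with 95% intervals, and filled points with black lines are called at an adjusted p below 0.05. The only called point on day 1 is wnt11.S at -1.78, and on day 5 fzd7.L, with 1.99 and 1.05, and fzd10.S, with 1.03, lie to the right.

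Most of the tested sets leaned toward stage 53, as the whole array did to a smaller extent. On day 5, 25 of 31 had a positive difference and their median was 0.32, while 56.5% of all tested probe sets were positive and the median was 0.10. On day 1 it was 21 of 31 with a median of 0.27, against 52.5% and 0.04. With the dim probe sets included, 38 of 55 were positive on day 5, with a median of 0.31 against 0.112 for all. On day 1 it was 26 of 55, with a median of -0.04, the same as for all probe sets. When the 3 arrays of high actin ratio were left out, 24 of the same 31 were positive on day 5, with a median of 0.29. On day 1 it was then 21, with a median of 0.31. The medians of all probe sets without those arrays were 0.106 on day 5 and 0.041 on day 1. With the filter at the 50th percentile, the day 5 median of the 18 WNT sets left was 0.13, close to the 0.097 of all probe sets. Centring each array on its median moved the median of all probe sets on day 5 from 0.102 to 0.002 and that of the WNT sets to 0.22, with 22 of 31 positive. Under the same centring, all called probe sets on day 5 split into 297 higher and 575 lower, in place of 404 and 452, and the WNT calls into 1 higher and 1 lower.

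Among the ligands, wnt11.S was the member that differed. It encodes a WNT of the polarity branch, which in chick embryos orients growing muscle fibres. Its log2 signal in the stage 53 limbs was 6.94, 7.10, 7.02 and 6.70 at 1 day and 7.87, 7.96, 7.05 and 8.0 at 5 days. In the stage 57 limbs it was 9.02, 8.29, 7.59 and 9.99 at 1 day and 9.73, 8.49, 9.23 and 9.96 at 5 days. Every stage 57 array read above every stage 53 array of the same day, and replicate 3 of stage 53 at 5 days read at the level of the 1 day arrays.

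Expression of wnt11.S was 3.43-fold lower at stage 53 on day 1, a difference of -1.78 with a standard error of 0.43 and an adjusted p of 0.0373 by limma. On day 5 it was 3.11-fold lower, with a difference of -1.64, a standard error of 0.43 and an adjusted p of 0.0296. Without the 3 arrays of high actin ratio the differences grew to -2.56 on day 1 and -1.92 on day 5, with adjusted p-values of 0.000732 and 0.000797, where 1.44% and 7.54% of all probe sets were called lower. Those arrays had the lowest wnt11.S signals of stage 57, between 7.59 and 8.49, while the other 5 read from 9.02 to 9.99.

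The wnt11.S calls were close to the threshold. Leaving out single arrays kept the day 1 call in 7 of 16 fits and the day 5 call in 10 of 16. On day 1 it was lost without any one of stage 53 day 1 replicates 1 to 4, stage 53 day 5 replicate 2, stage 57 day 1 replicates 1, 2 and 4, or stage 57 day 5 replicate 3. In those fits the difference lay between -1.92 and -1.36 and the adjusted p between 0.0506 and 0.103. On day 5 the call was lost without any one of stage 53 day 5 replicates 2, 3 and 4 or stage 57 day 5 replicates 1, 3 and 4, with differences from -1.73 to -1.41 and adjusted p-values from 0.0541 to 0.102. The direction held in all 25 alternatives that tested it.

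Skeletal muscle genes moved the same way as wnt11.S. Of 26 tested symbols of a muscle marker list, 20 were called lower at stage 53 and 0 higher on each day. Over all probe sets, 1.56% on day 1 and 3.89% on day 5 were called lower. The medians of the list were -3.05 on day 1 and -3.21 on day 5. The summed signal of the list ran from 13386 to 19401 at stage 53 day 1, from 14968 to 16457 at stage 53 day 5, from 36819 to 102335 at stage 57 day 1 and from 40378 to 131600 at stage 57 day 5. With the 3 arrays of high actin ratio left out, 19 were called lower on each day, against 1.44% and 7.54% of all probe sets. The cartilage, nerve and endothelial lists described below also had negative medians on each day. The part of muscle or of these tissues in the wnt11.S difference was not tested.

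The other 5 tested ligand probe sets did not pass the test on either day. The brightest was wnt7b.L, a ligand known from epithelia such as skin and lung in the mouse. It read 10.27, 9.57, 9.28 and 8.96 at stage 53 day 1, and 9.93, 8.96, 9.48 and 9.05 at stage 53 day 5. At stage 57 it read 9.23, 8.88, 9.06 and 8.91 on day 1 and 8.50, 8.96, 8.51 and 8.78 on day 5. The groups overlapped on day 1 and met at 8.96 on day 5, with differences of 0.50 and 0.67 and adjusted p-values of 0.346 and 0.175 by limma.

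The remaining ligand sets were wnt2b-b, wnt3a.S, wnt5a-a and wnt5a.S, and their differences lay between -0.46 and 0.44 on both days. wnt3a.S read 7.45 to 10.51 at stage 53 and 8.07 to 9.63 at stage 57 over both days. In the chick, Wnt3a acts in the ridge at the tip of the limb bud, and in the mouse Wnt5a is needed for limb outgrowth. The wnt5a.S probe set read 7.69, 9.80 and 8.66 on the 3 arrays of high actin ratio and at most 7.62 on the other 13. Without those arrays its day 1 difference turned from -0.46 to 0.90, with an adjusted p of 0.432. Without them wnt5a-a and wnt2b-b also changed sign on day 1, from -0.17 to 0.31 and from -0.03 to 0.22, and wnt3a.S on day 5, from -0.04 to 0.29.

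In the fit of all arrays, receptors held all the calls toward stage 53, through fzd7.L and fzd10.S. Without the 3 arrays of high actin ratio, the antagonist dkk2.L and the cytoplasmic component axin2.L were also called higher on day 5. Their differences were 1.13 and 1.21, with adjusted p-values of 0.0197 and 0.0448 by limma, where 8.27% of all probe sets were called higher. Array quality weights also called both, at 1.38 and 1.11, with 0.017 and 0.0167. That fit called 2670 of all 11618 probe sets on day 5, against 856 in the fit of all arrays without weights. With all arrays, 7 of the 8 tested receptor probe sets had a positive difference on day 5, with a median of 0.64, where 56.5% of all probe sets were positive. The groups of 5 receptor sets did not overlap. Both fzd7.L sets, fzd10.S and fzd2.S were higher at stage 53, and fzd8.S set 2 was lower. Over all tested WNT sets, 8 of 31 did not overlap on day 5, or 25.8%, against 18.5% of all probe sets. On day 1 it was 4 of 31, or 12.9%, against 9.19% of all, and 1 of these was a receptor.

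fzd7.L, which encodes a Frizzled used for cell movement in the Xenopus gastrula, gave the largest of the called changes with all 16 arrays. In the fit that left out the 3 arrays of high actin ratio, the day 1 difference of wnt11.S, at -2.56, was larger in size than the 1.95 of fzd7.L set 1 on day 5, and with array quality weights it was -2.20 against 1.85. Its set 1 read 7.98, 8.54, 9.07 and 8.22 at stage 53 day 1 and 9.47, 9.89, 9.70 and 9.57 at stage 53 day 5. At stage 57 it read 7.69, 7.90, 7.23 and 7.97 on day 1 and 6.95, 7.54, 8.02 and 8.16 on day 5. All 4 stage 53 arrays of day 5 lay above all 12 others. On day 5 the stage 53 signal was 3.97-fold higher, a difference of 1.99 with a standard error of 0.31 and an adjusted p of 0.000797 by limma. The call held in all 25 alternatives that tested this probe set, with differences from 1.56 to 2.15 and adjusted p-values up to 0.00437.

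The other tested probe set, fzd7.L set 2, gave the same direction at a smaller size. It read 8.28, 8.91, 9.01 and 8.40 at stage 53 day 1, 9.04, 9.93, 9.46 and 9.68 at stage 53 day 5, 7.83, 8.08, 8.97 and 8.63 at stage 57 day 1, and 8.29, 8.11, 8.52 and 8.98 at stage 57 day 5. On day 5 the lowest stage 53 array, at 9.04, lay just above the highest stage 57 array, at 8.98. The difference was 1.05, or 2.07-fold, with a standard error of 0.30 and an adjusted p of 0.0448. It stayed called in 5 of 16 fits that left out 1 array. The call was lost without any one of stage 53 day 1 replicates 1 to 4, stage 53 day 5 replicates 2, 3 and 4, stage 57 day 1 replicate 2, or stage 57 day 5 replicates 1, 2 and 3, with differences from 0.92 to 1.07 and adjusted p-values from 0.0507 to 0.126.

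On day 1, set 1 of fzd7.L differed between stages by 0.76, with an adjusted p of 0.209, and set 2 by 0.27, with 0.63. Only the groups of set 1 did not overlap on that day. A further 3 fzd7.L probe sets were too dim to be tested with the rest. On day 5, the first of them read 5.56 to 6.46 at stage 53 and 2.79 to 4.94 at stage 57, the second 7.05 to 7.66 and 5.08 to 6.36, and the third 3.49 to 6.75 and 5.31 to 7.43. The groups were apart for the first and the second and overlapped for the third.

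fzd10.S encodes a further Frizzled receptor. Its tested probe set read 7.51, 7.95, 7.20 and 7.52 at stage 53 day 1 and 8.11, 8.19, 8.17 and 8.65 at stage 53 day 5. At stage 57 it read 7.59, 8.01, 8.30 and 7.34 on day 1 and 7.25, 7.55, 7.35 and 6.86 on day 5. The day 1 groups overlapped and the day 5 groups did not. On day 5 the stage 53 signal was 2.04-fold higher, a difference of 1.03 with a standard error of 0.29 and an adjusted p of 0.0365 by limma.

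The fzd10.S call held in 8 of 16 fits that left out 1 array. It was lost without any one of stage 53 day 1 replicate 4, stage 53 day 5 replicates 1 to 4, or stage 57 day 5 replicates 1, 3 and 4, with differences from 0.90 to 1.09 and adjusted p-values from 0.0507 to 0.127. Without the 3 arrays of high actin ratio the day 5 difference was 1.13, with an adjusted p of 0.0114. On day 1 the difference was -0.26, with an adjusted p of 0.621, and it turned to 0.08 without those arrays. The fzd10.L homeolog and a second fzd10.S probe set were too dim to be tested. On day 5, fzd10.L read 3.93 to 6.39 at stage 53 and 3.60 to 6.18 at stage 57. The dim fzd10.S set read 3.28 to 4.81 and 1.38 to 5.26, and the groups overlapped for both.

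**Figure D2:**
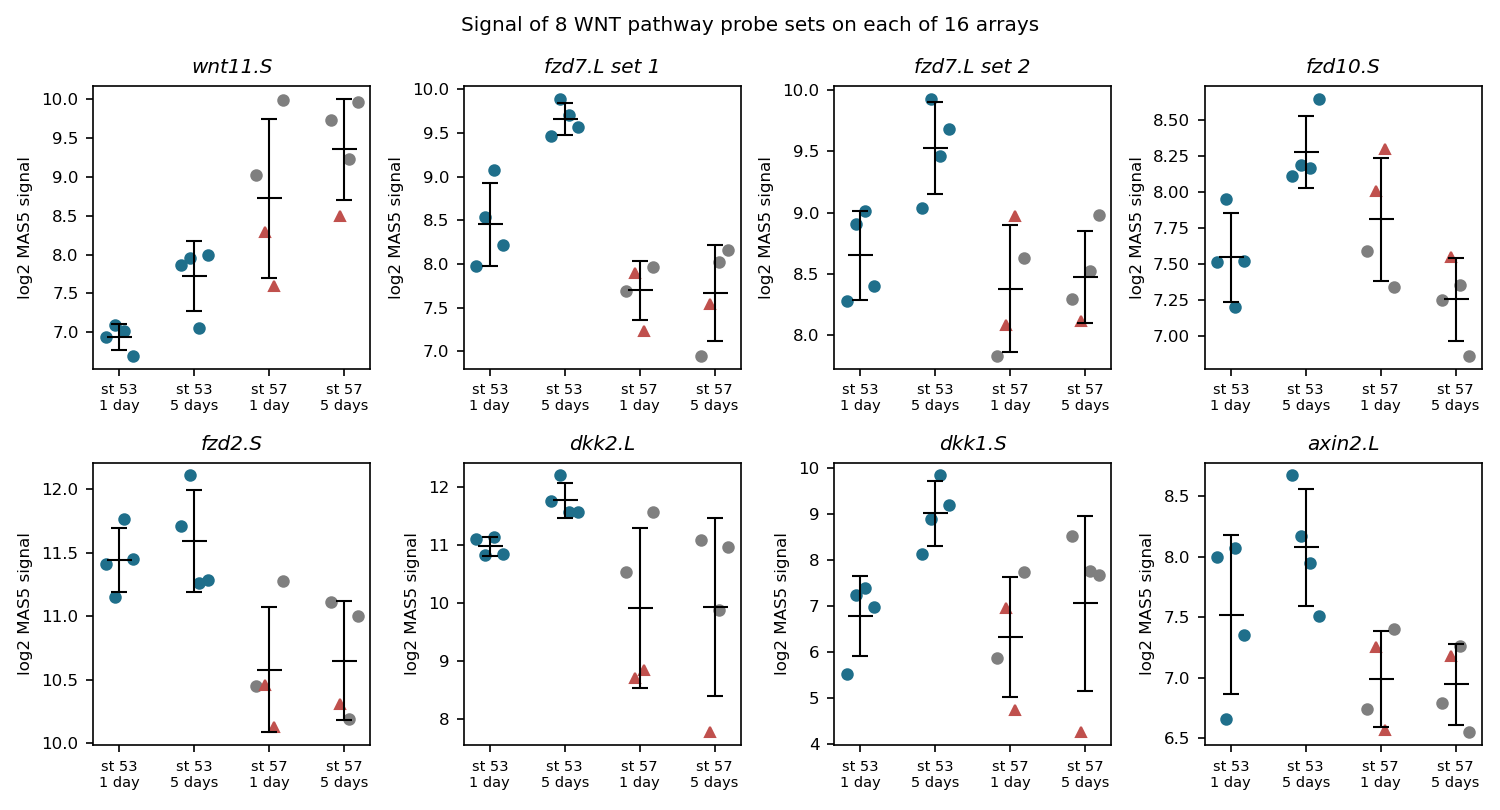
Log2 MAS5 signal of 8 WNT pathway probe sets on each of the 16 arrays, by stage and day, with black bars for the group mean and standard deviation of 4 arrays. Blue points are stage 53, grey points stage 57, and red triangles mark the 3 stage 57 arrays of high actin ratio; each panel has its own vertical scale. The stage 53 day 5 points of fzd7.L set 1, from 9.47 to 9.89, lie above all other groups, and the red triangles are the lowest points of dkk2.L.

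fzd2.S, the receptor with the brightest probe set, did not pass the test. It read 11.41, 11.15, 11.77 and 11.45 at stage 53 day 1 and 11.71, 12.11, 11.26 and 11.29 at stage 53 day 5, against 10.45, 10.46, 10.13 and 11.28 at stage 57 day 1 and 11.11, 10.31, 10.19 and 11.00 at stage 57 day 5. The groups overlapped on day 1 through replicate 4 of stage 57 and did not overlap on day 5. The differences were 0.87 and 0.94, with adjusted p-values of 0.157 and 0.0684 by limma. The test was passed on day 1 without stage 57 day 1 replicate 4, at 1.10 with an adjusted p of 0.0454. On day 5 it was passed without stage 57 day 1 replicate 3 or replicate 4, at 0.94, with adjusted p-values of 0.0431 and 0.0468. Those arrays are not part of the day 5 difference, which did not change, but they enter the shared estimate of spread. With all 3 arrays of high actin ratio left out the differences were 0.58 and 0.82, with adjusted p-values of 0.534 and 0.0636. Array quality weights called fzd2.S on day 5, at 0.94 with an adjusted p of 0.0132, where 2670 of all 11618 probe sets were called.

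The 2 tested probe sets of fzd8.S disagreed. On day 5, set 2 read 10.35, 10.48, 10.17 and 9.86 at stage 53 and 10.65, 11.20, 10.82 and 10.72 at stage 57. These groups did not overlap and lay in the direction opposite to fzd7.L, with a difference of -0.63 and an adjusted p of 0.137 by limma. Set 2 read 11.06 to 11.28 on the 3 arrays of high actin ratio and at most 10.82 on the other 13. Without those arrays its day 5 difference was -0.51, with an adjusted p of 0.0862. Array quality weights called it lower on day 5, at -0.55 with an adjusted p of 0.0424. That fit called 2670 of all 11618 probe sets. Set 1 overlapped and differed by 0.32, with an adjusted p of 0.638. It read 6.66 to 7.70 on the 3 arrays, against 7.76 to 8.43 on the other 5 of stage 57. Without the 3 arrays set 1 differed by 0.17 on day 5. The last of the receptors, fzd3.L and the co-receptor lrp5.L, differed by 0.35 and 0.06 on day 5, with adjusted p-values of 0.554 and 0.918. On day 1, fzd8.S set 1 turned from 0.14 to -0.28 when the 3 stage 57 arrays were left out.

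No secreted antagonist was called by limma on either day with all 16 arrays. At an unadjusted p below 0.05 it was 0 of 5 on day 1 and 2 of 5 on day 5, against 18.1% and 22.6% of all probe sets. All 5 tested sets had a positive difference on both days, with medians of 0.50 on day 1 and 1.27 on day 5. Of all probe sets, 52.5% were positive on day 1 and 56.5% on day 5. Among the same sets, but with the 3 arrays of high actin ratio left out, 3 of 5 were positive on day 1 and 4 of 5 on day 5, and the medians were 0.47 and 0.23. For dkk2.L and frzb.L, the 3 arrays of high actin ratio gave the lowest readings of all 16.

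dkk2.L, a Dickkopf that binds LRP co-receptors, read 11.104, 10.829, 11.126 and 10.844 at stage 53 day 1 and 11.752, 12.199, 11.565 and 11.574 at stage 53 day 5. At stage 57 it read 10.53, 8.70, 8.84 and 11.56 on day 1 and 11.08, 7.77, 9.88 and 10.97 on day 5. Its values of 8.70, 8.84 and 7.77 belong to the arrays of high actin ratio. The difference on day 5 was 1.85 with a standard error of 0.65 and an adjusted p of 0.0922, and on day 1 it was 1.07 with an adjusted p of 0.373. Without the 3 arrays, dkk2.L was called on day 5, with a difference of 1.13, a standard error of 0.30 and an adjusted p of 0.0197, where 8.27% of all probe sets were called higher. The day 1 difference was then -0.07.

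dkk1.S, the Dickkopf used as an inhibitor in the tadpole experiments mentioned above, was chosen for description after its values were seen. It read 5.51, 7.23, 7.39 and 6.98 at stage 53 day 1 and 8.13, 8.90, 9.84 and 9.20 at stage 53 day 5, against 5.86, 6.96, 4.74 and 7.73 at stage 57 day 1 and 8.53, 4.25, 7.76 and 7.68 at stage 57 day 5. The stage 53 arrays of the 2 days did not overlap, while stage 57 values spread widely. Between stages, the differences were 0.45 on day 1 and 1.96 on day 5, with adjusted p-values of 0.773 and 0.152. Without the 3 arrays they were -0.02 and 1.03, with adjusted p-values of 0.994 and 0.197.

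frzb.L, a ligand-binding Frizzled-related protein, read 9.34, 9.65, 8.94 and 8.15 at stage 53 day 1 and 9.93, 9.83, 8.09 and 8.42 at stage 53 day 5. At stage 57 it read 7.34, 6.83, 4.32 and 9.17 on day 1 and 8.21, 4.25, 9.11 and 9.61 on day 5, with 6.83, 4.32 and 4.25 on the arrays of high actin ratio. Its day 1 difference was 2.11 with a standard error of 1.02 and an adjusted p of 0.281, and without those arrays it was 0.77 with 0.706. Its day 5 difference was 1.27 with all arrays and 0.09 without those 3. The homeolog frzb.S differed by 0.27 on day 1 and 0.35 on day 5, and without those arrays by 0.99 and 0.23.

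sfrp2.S, the antagonist with the brightest probe set and a further ligand-binding inhibitor, read between 11.18 and 12.75 at stage 53 and between 10.28 and 12.76 at stage 57. The groups overlapped on both days. Differences were 0.50 and 0.09, with adjusted p-values of 0.552 and 0.928, and the day 5 value turned to -0.05 without the 3 arrays.

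The cytoplasmic components gave no call by limma. At an unadjusted p below 0.05 it was 2 of 9 on day 1 and 1 of 9 on day 5, against 18.1% and 22.6% of all probe sets. axin2 is both a scaffold of the complex that degrades beta-catenin and a well-known target gene of the pathway. axin2.L read 8.0, 6.66, 8.07 and 7.35 at stage 53 day 1 and 8.67, 8.17, 7.95 and 7.51 at stage 53 day 5, against 6.74, 7.25, 6.57 and 7.40 at stage 57 day 1 and 6.79, 7.18, 7.26 and 6.55 at stage 57 day 5. All stage 53 arrays lay above all stage 57 arrays on day 5, and the groups overlapped on day 1. The day 5 difference was 1.13, or 2.18-fold, with a standard error of 0.37 and an adjusted p of 0.0714.

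axin2.L was called on day 5 without the 3 arrays of high actin ratio, at 1.21 with an adjusted p of 0.0448 by limma, where 8.27% of all probe sets were called higher. It was also called without stage 57 day 1 replicate 3 alone, at 1.13 with an adjusted p of 0.0492. That array is not part of the day 5 difference, which did not change, while its standard error went from 0.37 to 0.35. Its homeolog axin2.S differed by 0.11 on both days, with adjusted p-values of 0.912 and 0.92, and by 0.67 and 0.33 without the 3 arrays. With all arrays, the 95% interval on day 5 ran from 0.35 to 1.90 for axin2.L and from -0.87 to 1.08 for axin2.S. These intervals overlapped. The difference between the homeologs was not tested.

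Beta-catenin was read by 3 tested probe sets. ctnnb1.S read 13.03, 12.57, 12.97 and 12.57 at stage 53 day 1 and 12.25, 12.77, 12.07 and 12.35 at stage 53 day 5, against 12.11, 12.29, 11.63 and 12.47 at stage 57 day 1 and 12.63, 12.44, 12.06 and 12.12 at stage 57 day 5. The day 1 groups did not overlap and the day 5 groups did. Its differences were 0.66 on day 1, with an adjusted p of 0.179, and 0.04 on day 5, with 0.935.

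Set 1 of ctnnb1.L read 7.21, 7.48 and 6.85 on the arrays of high actin ratio and between 8.73 and 10.83 on the other 13. Its day 1 difference of 1.73 fell to 0.56 without them, with adjusted p-values of 0.185 and 0.704. Set 2 of ctnnb1.L showed no such gap, with 12.06 to 12.45 on those arrays, and differed by 0.45 on day 1. On day 5, set 1 differed by 0.91 and set 2 by -0.33, with adjusted p-values of 0.443 and 0.413 by limma. Without those arrays the day 5 differences were 0.29 and -0.30. Set 1 of dvl2.L, which encodes a Dishevelled protein, was also lower on the 3 arrays, at 6.74 to 7.97 against 8.55 to 9.62 on the other 5 of stage 57. The 3 dvl2.L sets and dvl3.L differed by at most 0.73 on day 1 and at most 0.34 on day 5. The 0.73 was that of dvl2.L set 1, which turned to -0.22 without the 3 arrays, and on day 5 it turned from 0.31 to -0.06.

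Nuclear factors gave no call. tcf7l1.L, a TCF that mainly represses targets, read between 10.08 and 10.59 at stage 53 and between 9.83 and 10.98 at stage 57, with differences of 0.03 and 0.15 and adjusted p-values of 0.957 and 0.784. Its homeolog tcf7l1.S read 6.86, 7.35, 8.47 and 7.98 at stage 53 day 5 and 6.71, 6.71, 7.18 and 6.75 at stage 57 day 5. These groups overlapped, and the difference was 0.83 with an adjusted p of 0.227. On day 1 tcf7l1.S read 6.54 to 7.76 at stage 53 and 6.31 to 7.14 at stage 57, a difference of 0.27 with an adjusted p of 0.718. tcf7.S, which encodes another TCF, read between 8.15 and 9.12 at stage 53 and between 8.07 and 9.76 at stage 57, with differences of -0.32 and -0.30 and adjusted p-values of 0.60 and 0.632. By limma 0 of the 3 passed at an unadjusted p below 0.05 on either day, against 18.1% of all probe sets on day 1 and 22.6% on day 5.

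**Figure D3:**
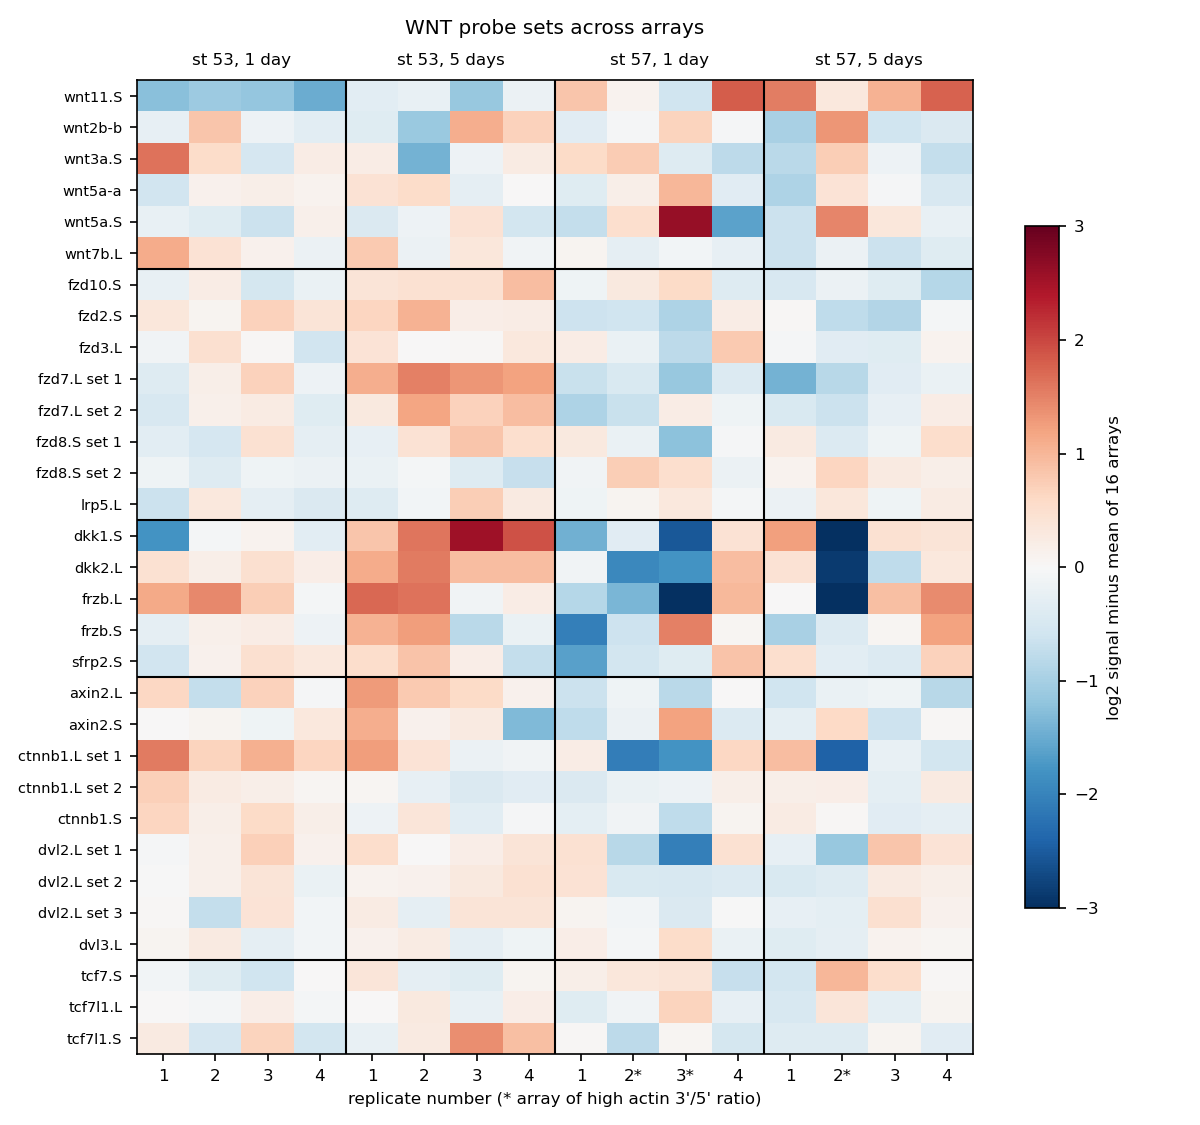
Log2 signal minus the mean of 16 arrays for each of the 31 tested WNT probe sets (lines) on each array (columns, by group and replicate), with horizontal black lines between ligands, receptors, secreted antagonists, cytoplasmic components and nuclear factors from top to bottom. Asterisks mark the 3 arrays of high actin ratio. The lowest cells of dkk2.L, frzb.L and ctnnb1.L set 1 stand in those columns, and wnt11.S is blue at stage 53 and red on most stage 57 arrays.

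From day 1 to day 5, limma called 0 of the 31 WNT probe sets at stage 53 and 0 at stage 57, where 0.121% and 0% of all tested probe sets were called. At an unadjusted p below 0.05 it was 5 of 31 at stage 53, against 9.56% of all, and 0 of 31 at stage 57, against 2.04%. At stage 53 the groups of the 2 days did not overlap for 6 of 31 probe sets, or 19.4%, against 11.1% of all, and at stage 57 for 0 of 31, against 0.835%. The 6 were fzd10.S, both fzd7.L sets, dkk1.S and dkk2.L, which were higher on day 5, and ctnnb1.L set 2, which was lower.

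The sizes of these stage 53 differences were 2.24 for dkk1.S, 1.20 and 0.88 for the fzd7.L sets, 0.80 for dkk2.L, 0.74 for fzd10.S and -0.54 for ctnnb1.L. The standard error for dkk1.S was 0.80, the fold 4.73 and the adjusted p 0.338, and fzd7.L set 1 had an adjusted p of 0.129. In the fit without the 3 stage 57 arrays of high actin ratio, which removes no stage 53 array but changes the shared estimate of spread, limma called dkk1.S with an adjusted p of 0.0225 and fzd7.L set 1 with 0.0347, where 1.32% of all probe sets were called higher. At stage 57 the same day differences were 0.73 for dkk1.S, -0.03 and 0.10 for fzd7.L, 0.01 for dkk2.L and -0.56 for fzd10.S. The stage 57 values in the fit without the 3 arrays were 1.20 for dkk1.S, -0.12 and 0.37 for fzd7.L, -0.41 for dkk2.L and -0.31 for fzd10.S. For ctnnb1.L set 2 the stage 57 day difference was 0.24 with all arrays and 0.17 without the 3.

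The interaction tests whether the change from day 1 to day 5 differed between stages. limma called 0 of the 31, where 0.0258% of all were called, and 3 of 31 passed at an unadjusted p below 0.05, against 3.97% of all. The 3 were fzd10.S at 1.29, with an unadjusted p of 0.00536, fzd7.L set 1 at 1.23, with 0.0112, and ctnnb1.L set 2 at -0.78, with 0.0269. Each had an adjusted p of 0.997, so a stage difference that changed between the days was not shown for any member.

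Other genes of the pathway were taken from a list of 101 names, of which 53 had a single-symbol probe set and 51 symbols, each by its brightest probe set, were tested. On day 1, limma called 1 higher and 2 lower at stage 53, against 0.99% and 1.56% of all probe sets, with a median difference of 0.05. On day 5 it called 4 higher and 4 lower, against 3.48% and 3.89% of all, with a median of 0.14. In both tests most of the list did not pass, with 48 and 43 symbols not called. Without the 3 arrays of high actin ratio the counts were 2 higher and 0 lower on day 1, against 0.68% and 1.44% of all, and 6 higher and 5 lower on day 5, against 8.27% and 7.54%.

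Known WNT target genes made most of these calls, with 3 higher and 3 lower among 13 tested symbols on day 5. The higher ones were mycn.S, mycn.L and fgf8.L, and the lower ones myc.S, myc.L and cd44.L, so homeologs of the same gene are counted separately. The list was chosen with earlier results of these data known, so the count does not tell how WNT target genes behave as a set. mycn, a growth-promoting transcription factor, was higher at stage 53 through both homeologs. mycn.S read 11.85 to 12.14 at stage 53 day 5 and 7.77 to 9.04 at stage 57 day 5, a 10.4-fold difference of 3.38 with an adjusted p of 0.000709. On day 1 it differed by 2.22 with an adjusted p of 0.0268, and by 1.21 with 0.0333 without the 3 arrays of high actin ratio. mycn.L differed by 1.80 on day 5, with an adjusted p of 0.000709, and by 1.04 on day 1, with 0.0513, where it was called without the 3 arrays, at 1.23 with 0.0422. Its probe set is of the type Affymetrix marks as open to cross-hybridisation, so signal of related transcripts can be included.

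Its relative myc was lower at stage 53. myc.S read 7.19 to 9.30 at stage 53 day 5 and 11.15 to 12.48 at stage 57 day 5, an 8.81-fold difference of -3.14 with an adjusted p of 0.0011. myc.L differed by -2.32 with an adjusted p of 0.011. On day 1 they differed by -2.03 and -2.04, with adjusted p-values of 0.0391 and 0.0415, and both lost the call without the 3 arrays, at -1.64 and -1.36 with 0.148 and 0.212. Both myc probe sets are open to cross-hybridisation, so the homeologs may share signal.

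fgf8.L, a growth factor of the limb bud ridge, read 8.12 to 8.57 at stage 53 day 5, above the 5.25 to 6.97 of stage 57 day 5. The difference was 2.16, or 4.47-fold, with an adjusted p of 0.00996, and on day 1 it was 0.07 with 0.945. cd44.L, a hyaluronan receptor, was lower at stage 53 on day 5 by a difference of -1.27, with an adjusted p of 0.0336. The cyclin genes ccnd1.L and ccnd1.S differed by -0.04 and 0.44 on day 5 and did not pass, but without the 3 arrays ccnd1.S was called, at 0.87 with an adjusted p of 0.0406.

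These counts use the brightest probe set of each symbol. Of 25 further tested probe sets of the list, limma called 0 on day 1 and 4 on day 5, all lower, of which 3 belonged to myc and 1 to fn1.S. fn1.S encodes fibronectin, a matrix protein, and is named because of this call. Its 4 tested probe sets were all lower at stage 53 on day 5, the brightest by a difference of -0.55, with an adjusted p of 0.0933, and the called one by -1.83, with 0.0126. The brightest was called too without the 3 arrays, at -0.67 with an adjusted p of 0.00468.

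Outside the targets, a nuclear co-repressor and a secreted inhibitor were called. tle2.L, a Groucho protein that represses with TCF, read 11.23 to 11.62 at stage 53 day 5 and 10.03 to 10.50 at stage 57 day 5, a difference of 1.24 with an adjusted p of 0.00143. wif1.S, which binds and blocks WNT ligands, read 9.04 to 9.67 and 10.19 to 12.26, a difference of -1.84 with an adjusted p of 0.0316. limma called 0 of 5 agonists and non-Frizzled receptors, 0 of 3 secretion genes, 0 of 8 further cytoplasmic components and 0 of 11 polarity and calcium genes on either day. On day 5, 0, 0, 2 and 1 of these had an unadjusted p below 0.05, and on day 1 it was 1, 0, 2 and 2. Over all probe sets the shares were 22.6% on day 5 and 18.1% on day 1.

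**Figure D4:**
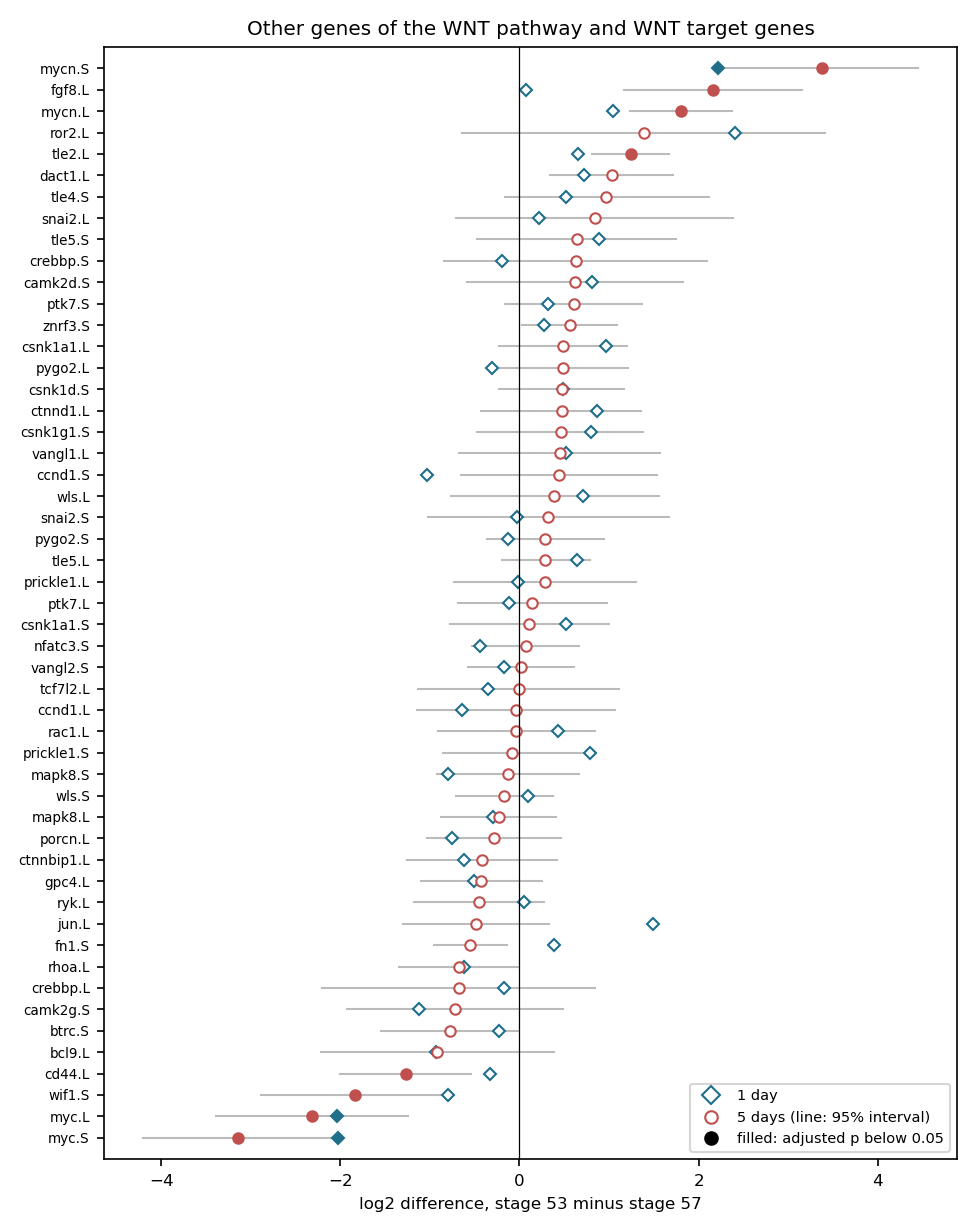
Stage 53 minus stage 57 difference on the log2 scale for 51 tested symbols of other WNT pathway genes and WNT target genes, ordered by the day 5 value. Diamonds are day 1, circles day 5 with 95% intervals, and filled symbols are called at an adjusted p below 0.05. mycn.S, fgf8.L, mycn.L and tle2.L lie to the right and myc.S, myc.L, wif1.S and cd44.L to the left on day 5.

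Marker lists of other cell types were shorter than that of muscle and gave fewer calls. Over all tested probe sets, 18.1% on day 1 and 22.6% on day 5 had an unadjusted p below 0.05 by limma. The shares called were 0.99% higher and 1.56% lower on day 1, and 3.48% and 3.89% on day 5. Of 7 tested cartilage symbols, 1 was lower at stage 53 on each day, and 3 on day 1 and 5 on day 5 had an unadjusted p below 0.05, with medians of -1.20 and -1.68. Of 16 epidermal symbols, 2 were higher and 2 lower on day 1, and 1 was higher and 1 lower on day 5. At an unadjusted p below 0.05 it was 6 of the 16 on each day, with medians of 0.23 and 0.38. Of 6 nerve and Schwann cell symbols, 1 was lower on day 1 and 3 on day 5, with 4 and 5 at an unadjusted p below 0.05 and medians of -0.66 and -1.29. Of 6 myeloid symbols 1 was lower on day 5, and 0 on day 1 and 1 on day 5 had an unadjusted p below 0.05. None of 6 endothelial and 5 erythroid symbols was called by limma on either day, with 2 endothelial and 0 erythroid symbols at an unadjusted p below 0.05 on each. In the fit that left out the 3 arrays of high actin ratio, the calls on day 5 were 3 lower for cartilage, 3 higher and 1 lower for epidermis, 1 higher and 3 lower for nerve, 1 lower for endothelium, 1 lower for myeloid cells and 2 higher for erythroid cells. On day 1 they were 1 lower for cartilage and 0 for the 5 other lists. Over all probe sets, that fit called 8.27% higher and 7.54% lower on day 5, and 0.68% and 1.44% on day 1. The summed epidermal signal overlapped between stages on day 5, from 68581 to 90303 at stage 53 and from 60859 to 110452 at stage 57. The part of cell makeup in the receptor differences was not tested.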

How the data were processed

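Total RNA, 1 microgram per array, was amplified with the Affymetrix 2-cycle kit and hybridised to 1-colour Xenopus arrays, per the labels' protocols. Per the submitters' processing notes, the deposited intensity values are MAS5 signals; they are linear, and the sources used here give neither version nor scaling target. The mean without the outer 2 percent at each end was 1000.1 to 1000.2 on every array, and signals ran from 0.6 to 325607.8. Precision is limited by 4 arrays a group.

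The 120 control probe sets were removed, which left 15491. Signals were log2-transformed with no offset. Groups came from the array titles. Group means of all 16 arrays were fitted with limma 3.58.1 in R 4.3.3 (eBayes with an intensity trend) in 5 contrasts, and the procedure was tested on simulated data. Genes come from the platform annotation. By Entrez identifier 52 of 55 members matched RefSeq, with 0 changed symbols, and wnt2b-b and wnt5a-a keep the annotation's name. No sequence or coordinate was used here.

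The members and lists were chosen with earlier results of these data known. Members with values on every array were those called, the brightest tested set of each role, and, where a role had no call at a day, its smallest p. dkk1.S was added. Alternatives covered normalization, offset, filter, variance model and arrays left out.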

Additional observations from a re-analysis of the deposited data

Results flagged for a closer look

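For 3 of 60 combinations of a named probe set and a group, 1 array lay far from the other 3, by the 95% critical value of Dixon's ratio. Chance alone gives about 1 in 20. For wnt11.S at stage 53 day 5, replicate 3 read 7.05, with the nearest array at 7.87. For fzd10.S at stage 53 day 5, replicate 4 read 8.65, with the nearest at 8.19. For tcf7l1.S at stage 57 day 5, replicate 3 read 7.18, with the nearest at 6.75.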

How the results depend on the processing

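No paired analysis was possible because replicate numbers follow accession order only and pair no arrays. The direction of the 5 called differences held under every alternative that tested them. With 1 array left out, the day 1 WNT calls ran from 0 to 1, the day 5 calls from 1 to 6, and calls between days at either stage and of the interaction stayed at 0. On day 1 it was 0 calls with quantile normalization, the larger offset or only the 8 arrays compared. It was also 0 with the filter at the 50th percentile, which left wnt11.S untested. On day 5 it was 2 with median centring, 2 without a filter, 1 with the stricter filter and 8 with array quality weights. The stricter filter leaves 18 WNT sets, and wnt11.S, fzd10.S and fzd7.L set 1 were not tested under it. Between days at stage 53 it was 4 with weights, 2 with only 8 arrays and 2 without the arrays of high actin ratio. Among the named probe sets, 16 of 766 values under alternatives changed sign, and they came from 5 uncalled stage differences. These were tcf7l1.L on day 1 (-0.05 with quantiles, and -0.03, -0.08 and -0.05 in a range of -0.08 to 0.26 with an array left out), sfrp2.S on day 5 (0.00 with median centring, -0.05 without the 3 arrays, and -0.01, -0.12, -0.05 and -0.08 in a range of -0.12 to 0.41 with an array left out), ctnnb1.S on day 5 (-0.05 with median centring, and -0.09, -0.04 and -0.02 in a range of -0.09 to 0.15 with an array left out), and, without the 3 arrays, fzd10.S at 0.08 and dkk2.L at -0.07 on day 1. Over all 31 WNT sets, leaving out the 3 arrays turned 10 signs on day 1, 3 on day 5, 0 between days at stage 53, 8 between days at stage 57 and 5 of the interaction. The causes were not tested.

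Over all probe sets, day 1 had 296 calls, 135 with the stricter filter, 135 with only 8 arrays, and 132 to 563 with an array left out. Day 5 had 856, with 2670 under weights, 1837 without the 3 arrays, and 408 to 1368 with an array left out. Between days at stage 53 there were 14, with 25 after median centring (4 higher and 21 lower, in place of 4 and 10), 22 with the smaller offset, 828 with weights, 278 with only 8 arrays, 371 without the 3 arrays, and 5 to 92 with an array left out. Between days at stage 57 there were 0, and 0 to 1 with an array left out. The interaction had 3, with 1 under each offset, without a filter and with the stricter filter, 11 with weights, 0 without the 3 arrays, and 0 to 2 with an array left out.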
